A study of Bos taurus with 43 samples.

Results

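The nuclear genes for proteins of the mitochondrial ribosome were followed in biceps brachii muscle of 43 male cattle, 1 animal per array. Gene probes were taken where the array's own annotation gave a gene name that starts with MRPL or MRPS, or a description that names a mitochondrial ribosomal protein. This held for 76 of the 21475 gene probes on the array, 49 for proteins named after the large subunit and 27 for proteins named after the small subunit, and they stand for 75 genes. The gene name found 20 of them and the description found 75, so that 56 probes came in by the description alone. Current RefSeq symbols could be matched to 70 probes, and the other 6 keep the name in the file. Of 79 protein-coding genes that RefSeq lists as MRPL, MRPS or DAP3 in cattle, only MRPL55 and MRPS6 were not found on the array. The names and descriptions used here also did not reach the probes of DAP3, MRPL58 and MRPS21, which are given apart.

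The mitochondrial ribosome translates the few messages that the mitochondrial genome encodes, all of them for inner membrane subunits of the respiratory chain and the ATP synthase. Its RNAs come from mitochondrial DNA, but every one of its proteins is encoded in the nucleus, made in the cytosol and imported. Part of these proteins have counterparts in bacterial ribosomes and the rest do not, and in skeletal muscle the genes are expressed beside those of the respiratory chain, of which slow and oxidative fibres hold most.

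The study looked for a transcriptional trace of illicit corticosteroid use in beef cattle at slaughter. The 4 positive animals (S21, S54, S56 and S57), which the labels call suspected of corticosteroid treatment, were commercial beef males that the study classed as positive from the structure of the thymus and from dexamethasone in urine, so that drug, dose and duration are not known. The 21 unknown animals were commercial males whose treatment was not known. The study's principal component analysis of these same arrays split them by eye into group B, with 10 unknown animals that lay beside the positive ones, and group A, with 11. The negative controls were 5 cross-breed bulls (animals K7 to K12), which the study describes as Charolais by Limousine crosses, and 13 Holstein males (C), both untreated and from earlier controlled trials. The breed of each commercial animal is not in the labels. Treatment, origin and trial therefore changed together between positive and control animals, and breed may have. The ranges of age and weight that the study gives also differ between commercial, cross-breed and Holstein animals.

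Signals are log2 values of the scanner software's background-corrected intensity, with the 43 arrays brought together by cyclic loess, and 1 unit is a doubling. A probe was tested where its signal was not under 4 on 30 or more arrays, which 16354 probes and 75 of the 76 members passed, all 49 of the large and 26 of the small subunit. MRPS22 failed. Its signal was well above background on 5 arrays (2 positive and 3 of group B), with means of 2.62 ± 0.47 (SD, n = 4) in positive and 2.41 ± 0.18 (SD, n = 5) in cross-breed animals. The software called 69 members well above background on every array, and no member value was saturated. Among tested members MRPS12, MRPS33, MRPS7 and MRPS23 were measurable least often, well above background on 24, 27, 29 and 39 arrays, and MRPS26 and MRPL35 each missed 1 array.

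The arrays were not alike in brightness. The share of all spots well above background was 74.9% to 89.4% in positive animals, 62.9% to 73.7% in cross-breed controls and 62.3% to 73.2% in Holstein controls, so that positive and cross-breed ranges did not meet. Unknown animals spanned 40.2% in animal 79 up to 97.3% in animal 50, both of group B and both on slides that also held positive animals. The positive arrays and the Holstein arrays each had slides, scan days and a scanner that no cross-breed array shared. Batch and group could therefore not be told apart in either comparison with the cross-breed controls, and in whole muscle fewer cells of a type and less RNA per cell could not be told apart either.

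Between positive animals and cross-breed controls, mitochondrial ribosomal protein genes were more often higher than lower. At a limma adjusted p under 0.05, 33 of 75 members (44%) were higher in the positive animals and 6 (8.0%) were lower. Over all 16354 probes tested these shares were 25.5% and 26.2%. The large subunit had 20 higher and 3 lower of 49, and the small subunit 13 higher and 3 lower of 26. The changes were mostly modest. At least 2-fold and past the test were 10 members higher (all probes 14.4%) and 2 lower (all probes 13.8%). The median log2 difference was 0.36 over the large subunit and 0.45 over the small subunit, against -0.03 over all probes. With MRPS30 and MRPS18A, which sit in the large subunit, counted there, the order turned, to 0.39 over the large and 0.35 over the small subunit. All 4 positive values lay above all 5 cross-breed values for 32 members (all probes 21.7%) and below them for 5 (all probes 21.6%). The split over all probes moved with the scaling. It was 29.3% higher and 18.0% lower with scaling to the 75th percentile, and 21.4% and 36.8% with a pairwise loess that fitted each array to every other, while the members had 33 higher and 3 lower with the former and 44 and 7 with the latter.

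**Figure D1:**
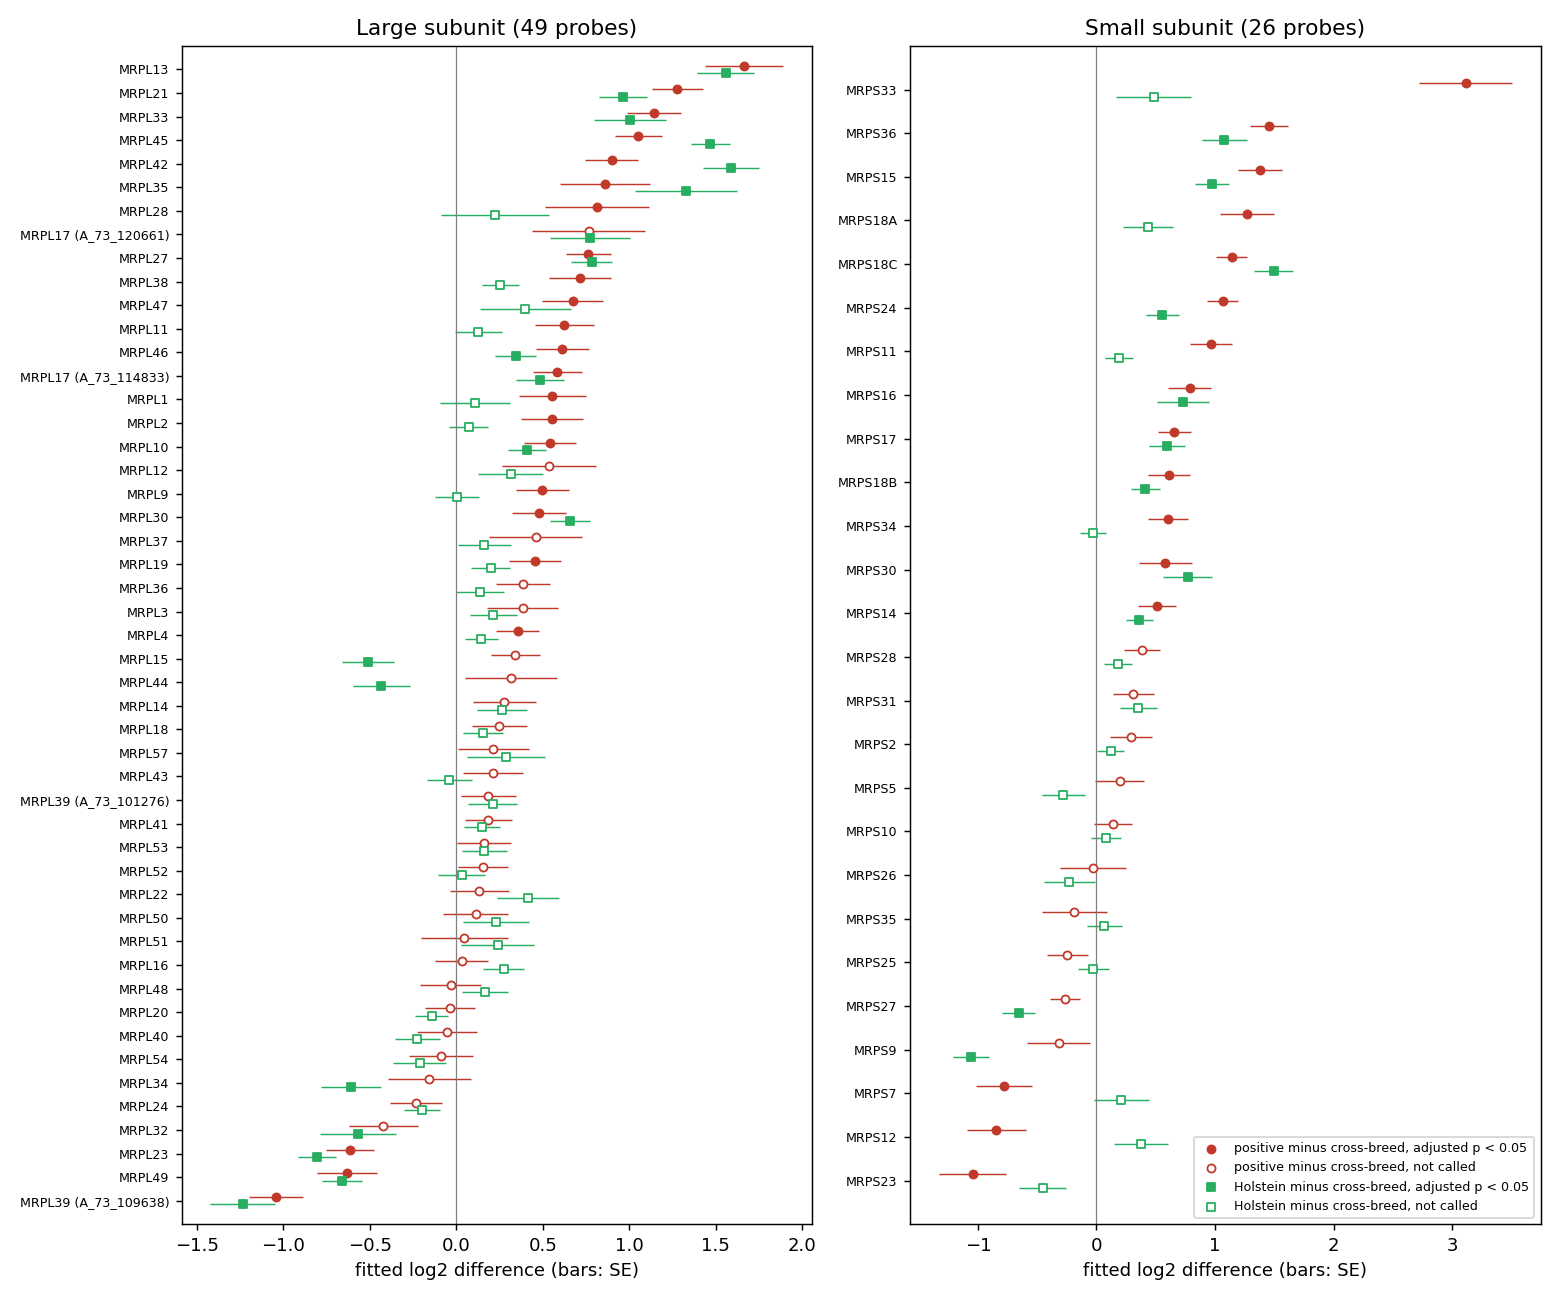
Log2 differences of the 75 tested members, ordered by size within each subunit, for positive minus cross-breed and Holstein minus cross-breed animals. Points are limma estimates, bars their standard errors, and filled points have an adjusted p under 0.05. In positive animals 33 members were higher and 6 lower, and in Holstein animals 21 and 9.

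MRPS33, a small-subunit protein with no bacterial counterpart, had the largest fitted difference. Its signals were 7.33, 7.23, 7.10 and 6.93 in animals S21, S54, S56 and S57. In the cross-breed controls K7, K8, K10, K11 and K12 they were 3.00, 3.13, 4.70, 4.68 and 4.66. The ranges lay far apart, with K7 and K8 lowest. The log2 difference was 3.11 (standard error 0.39, limma adjusted p = 0.000113). The signal was well above background on all 4 positive arrays but on only 3 of the 5 cross-breed arrays, so that the size of the difference is uncertain, and with the pairwise loess it was 0.34 (adjusted p = 0.551) and with normexp background correction 1.05. Over all 43 arrays, 9 had MRPS33 signals of 6.78 to 7.55 and the other 34 had 2.12 to 5.22. The 9 were the 4 positive animals and animals 50, 60, 61, 78 and 81 of group B, and their arrays had 74.3% to 97.3% of spots well above background, against 40.2% to 79.2% in the other 34. The part of array brightness in this pattern was not tested.

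**Figure D2:**
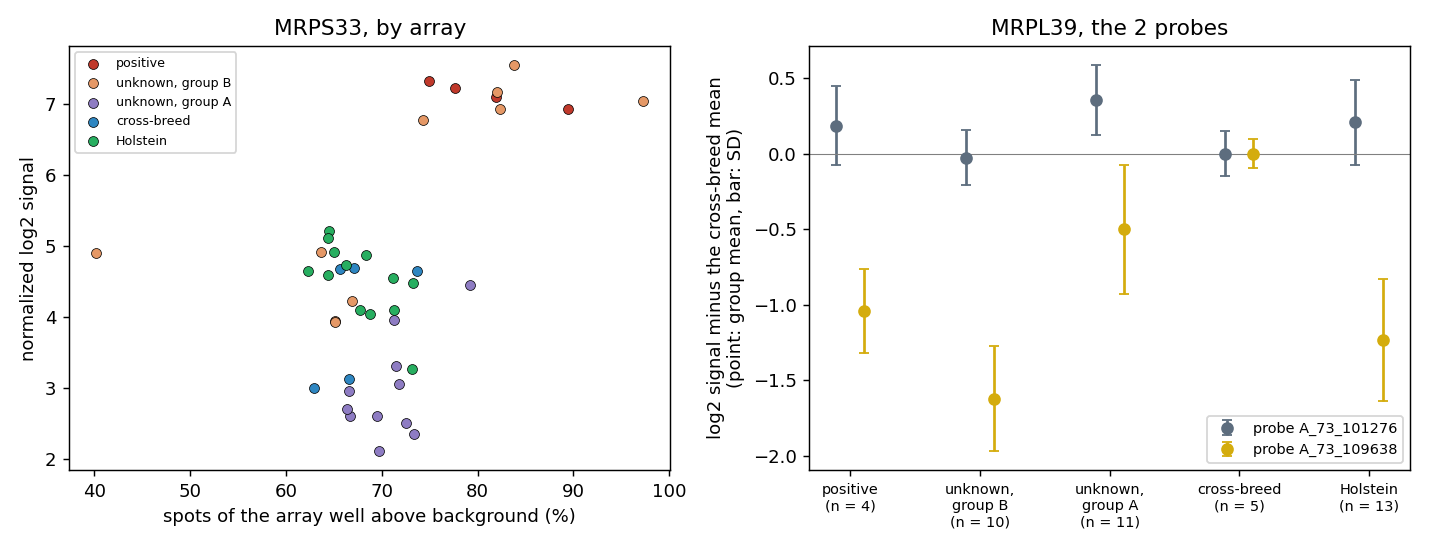
Left, log2 signal of MRPS33 on each of 43 arrays against the share of spots well above background (%), by group. Right, group means with SD bars of both MRPL39 probes, each minus its own cross-breed mean. The 9 arrays with MRPS33 at 6.78 or more all had shares of 74.3% or more, and one MRPL39 probe had its highest mean in cross-breed animals, above positive animals by 1.04 and Holstein animals by 1.24 on the log2 scale.

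MRPL13, the counterpart of bacterial L13, had signals of 13.13, 12.56, 12.81 and 13.13 in the positive animals. The cross-breed controls had 11.69, 10.85, 10.89, 11.15 and 11.64. Every positive animal was brighter than every control, and K7 and K12 were the brightest controls. The difference was 1.67 on the log2 scale (standard error 0.23, 3.17-fold, adjusted p = 0.000185).

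MRPS36 was named for the small subunit but is now known as a component of the 2-oxoglutarate dehydrogenase complex of the citric acid cycle. Its signals were 13.53, 13.19, 13.03 and 13.20 in the positive animals, with S21 highest. In the cross-breed controls they were 12.07, 11.53, 11.70, 11.75 and 11.88, again without overlap (log2 difference 1.45, standard error 0.16, adjusted p = 5.25e-05). MRPS15, a small-subunit protein with a bacterial counterpart, had 14.67, 14.01, 13.88 and 14.23 against 12.96, 12.60, 12.99, 12.83 and 12.71. The ranges stood apart, S21 was again highest, and the difference was 1.38 (standard error 0.18, adjusted p = 0.000159). MRPL21, a large-subunit protein with a bacterial counterpart, had 14.52, 14.19, 14.26 and 14.54 against 13.33, 12.91, 12.96, 13.08 and 13.21. It too was without overlap, with a difference of 1.28 (standard error 0.15, adjusted p = 7.16e-05).

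Proteins that carry a small-subunit name but sit in the large subunit were looked at by themselves. MRPS18A was 12.94, 12.20, 12.79 and 12.35 in the positive animals and 11.09, 11.23, 11.20, 11.92 and 11.05 in the controls, with K11 well above the other controls but below every positive animal (log2 difference 1.27, adjusted p = 0.00098). MRPS30 had 9.29, 9.03, 8.63 and 9.37 against 8.34, 8.31, 9.01, 8.13 and 8.73, so that K10 and K12 reached into the positive range. Its difference of 0.58 was close to the threshold (adjusted p = 0.0494), and without any 1 of S21, S54, S57, K7, K8, K11 or K12 it no longer passed (adjusted p = 0.0506 to 0.131). Nor did it with a random block for the slide (adjusted p = 0.11) or for the day of scanning (0.131), or with other scalings and normexp (0.0666 to 0.089). In a common fit of all 43 arrays it did not pass either (adjusted p = 0.302), and with the pairwise loess the difference was -0.19.

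The members that were lower included both dim and bright probes. MRPL39, a large-subunit protein without a bacterial counterpart, has 2 probes that RefSeq puts on the same gene. One of them had 10.18, 9.98, 9.85 and 10.48 in the positive animals against 11.17, 11.06, 11.12, 11.32 and 11.15 in the controls (log2 difference -1.04, standard error 0.16, adjusted p = 0.000352). The other was 0.19 higher (adjusted p = 0.358), with overlapping ranges, so that the 2 probes of the gene disagreed. This other probe was 0.10 to 0.30 higher with 1 array left out, and passed with the pairwise loess (0.48, adjusted p = 0.0449). MRPL23, which lies at the exit of the peptide tunnel, had 12.70, 12.40, 12.54 and 12.63 against 13.13, 12.96, 13.17, 13.32 and 13.34. All positive values were below all controls (difference -0.62, adjusted p = 0.0041), but it was -0.12 with the pairwise loess (adjusted p = 0.553).

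MRPL49 was likewise lower without overlap, at 10.04, 9.72, 9.51 and 10.15 against 10.41, 10.54, 10.38, 10.78 and 10.33 (difference -0.63, adjusted p = 0.0114). MRPS23, of the small subunit, had 3.85, 4.89, 4.31 and 4.93 against 5.26, 5.31, 6.19, 5.15 and 5.79 (difference -1.05, adjusted p = 0.0109), with 3 of the 4 positive values well above background. It did not pass with scaling to the 75th percentile (-0.44, adjusted p = 0.198) or with normexp (-0.27, adjusted p = 0.0703). MRPS12, part of the decoding centre, was lower by 0.85 (adjusted p = 0.0172) and MRPS7 by 0.78 (adjusted p = 0.0188). The MRPS7 probe is described in the file by MIF4GD, its neighbour on the chromosome, so that its gene is less certain. Both were near background, with MRPS12 measurable on 1 positive and 2 cross-breed arrays and MRPS7 on 2 and 3. With scaling to the 75th percentile both were higher instead, by 0.23 and 0.16. Neither passed with normexp (-0.11, adjusted p = 0.455, and -0.14, adjusted p = 0.316). MRPS12 did not pass on the authors' own normalized values (-0.37, adjusted p = 0.197). MRPS7 did not pass with a random block for scan day (-0.79, adjusted p = 0.0639) or without S54 (-0.585, adjusted p = 0.0534). Neither MRPS12 nor MRPS7 passed in a common fit of all 43 arrays (adjusted p = 0.1685 and 0.1575). Restricted to the 69 members well above background on every array, a choice made after seeing the data, 31 were higher and 3 lower, against 24.6% and 21% of all probes so restricted.

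Members not called included MRPL12 and MRPL41. MRPL12 forms the stalk where translation factors bind, and it had 11.71, 11, 11.18 and 11.63 against 11.15, 10.02, 11.27, 10.70 and 11.08. These ranges overlapped, and the difference of 0.54 (standard error 0.27) did not pass (adjusted p = 0.121). MRPL41 differed by 0.19 (standard error 0.14, adjusted p = 0.277). MRPL12 passed with the pairwise loess (0.75, adjusted p = 0.0367) and MRPL41 with normexp (0.37, adjusted p = 0.048). With 1 array left out at a time MRPL12 differed by 0.33 to 0.66, least without K8.

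**Figure D3:**
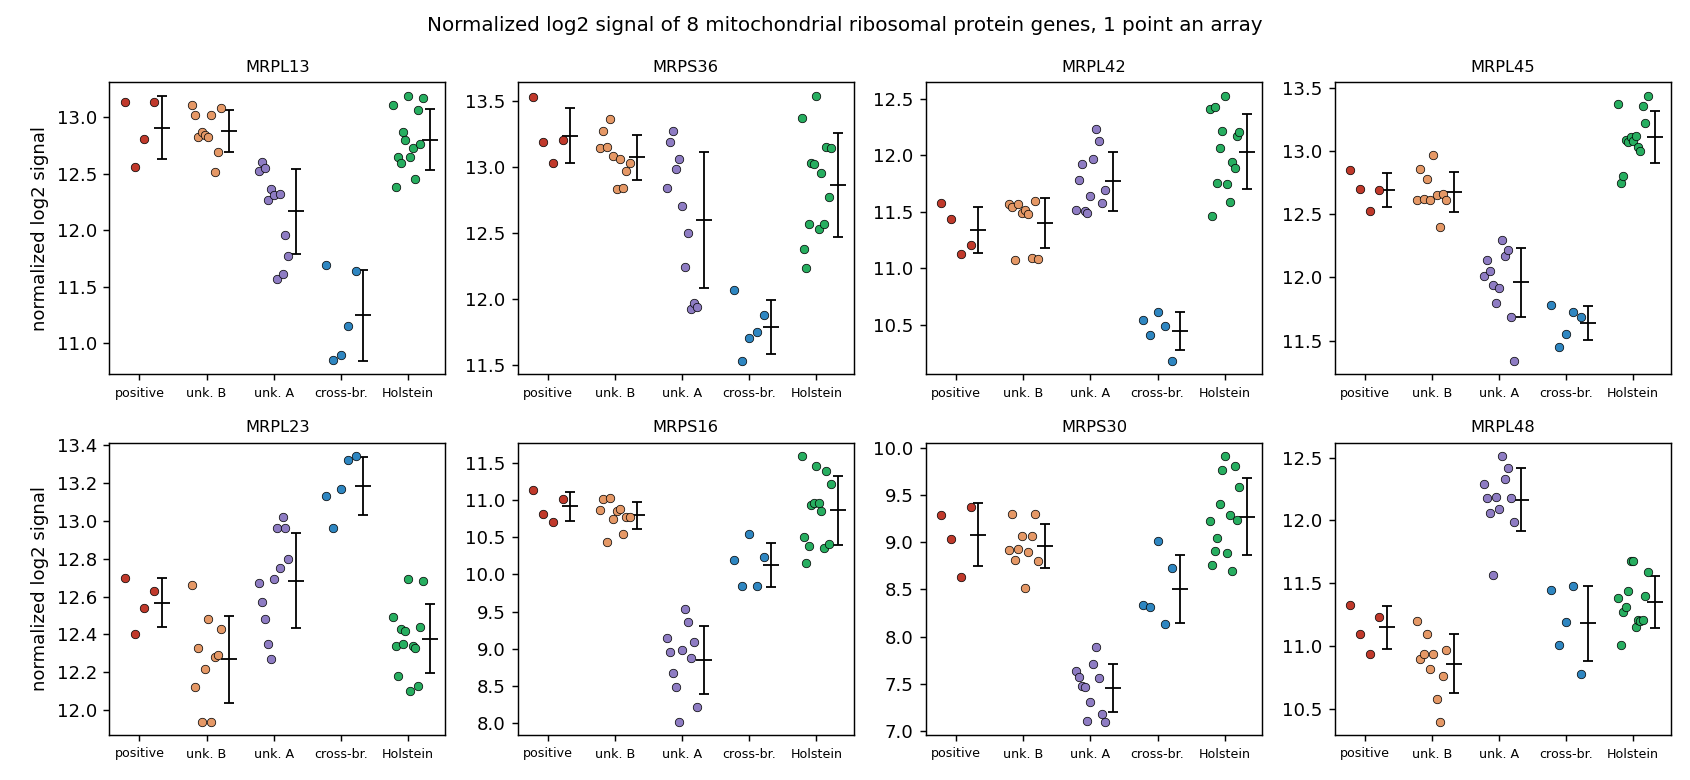
Normalized log2 signal of 8 members on each of 43 arrays, by group (positive, group B, group A, cross-breed, Holstein), 1 point per animal with the group mean and SD beside the points. MRPL13, MRPS36 and MRPL42 have their lowest means in cross-breed animals (11.24, 11.79 and 10.44) and MRPS16 and MRPS30 in group A (8.85 and 7.46).

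Members with and without a bacterial counterpart, on the list used here, had unlike counts of higher members but 3 lower members each. Of 43 with one, 23 were higher and 3 lower, with a median of 0.50. Of 32 tested without one, 10 were higher and 3 lower, with a median of 0.20. Over all probes 25.5% were higher and 26.2% lower. This is a description, and the difference was not tested.

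Proteins of the mitochondrial ribosome, or bound to it, that go by other names were mixed. DAP3, a GTP-binding protein of the small subunit that is also known from apoptosis, had signals of 5.38, 5.43, 5.05 and 5.95 in the positive animals and 6.58, 6.31, 7.11, 7.11 and 6.84 in the cross-breed controls. It was lower without overlap, by 1.34 on the log2 scale (standard error 0.23, adjusted p = 0.000767; 1.02 lower and adjusted p = 0.187 with the pairwise loess). OXA1L, the inner membrane insertase to which the ribosome docks, was 0.66 higher (adjusted p = 0.00396) and AURKAIP1 0.46 higher (adjusted p = 0.0475). MRPL58, a peptidyl-tRNA hydrolase built into the large subunit, was 0.33 higher and did not pass (adjusted p = 0.119). It passed with scaling to the 75th percentile (0.57, adjusted p = 0.0413) and with the pairwise loess (0.61, adjusted p = 0.0225). Neither CHCHD1 (-0.46), GADD45GIP1 (-0.40) nor PTCD3 (0.35) passed, and MRPS21, of the small subunit, differed by 0.10 (standard error 0.16, adjusted p = 0.633). Apart from MRPS21, these were 7 proteins, of which 2 were higher and 1 lower, against 25.5% and 26.2% of all probes.

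The rest of the mitochondrial expression machinery was read beside them, where 25.5% of all probes were higher and 26.2% lower. Of 9 tested probes for translation factors, 5 were higher and none lower, among them GUF1 (1.11) and MTRFR (0.97), with a median log2 difference of 0.51. Of 17 for mitochondrial aminoacyl-tRNA synthetases and partners, 4 were higher and 2 lower, with a median of 0.00 and EARS2, the glutamyl-tRNA synthetase, lower by 1.44. Of 21 for mitochondrial RNA handling and ribosome assembly, 8 were higher and 1 lower (FASTKD2, -0.87). GRSF1, which binds mitochondrial RNA in granules, had the largest difference among them, 2.06 (adjusted p = 4.01e-05).

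The nuclear-encoded subunits that assemble with the products of this ribosome were also more often higher than lower. Of 73 nuclear-encoded probes for complexes I, III and IV and the ATP synthase, 51 were higher and 2 lower, with a median of 0.61 on the log2 scale. Complex I alone had 27 higher and none lower of 37. Cytosolic ribosomal proteins had 29 higher and 10 lower of 82, with a median of 0.26. Shares over all probes were 25.5% higher and 26.2% lower.

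**Figure D4:**
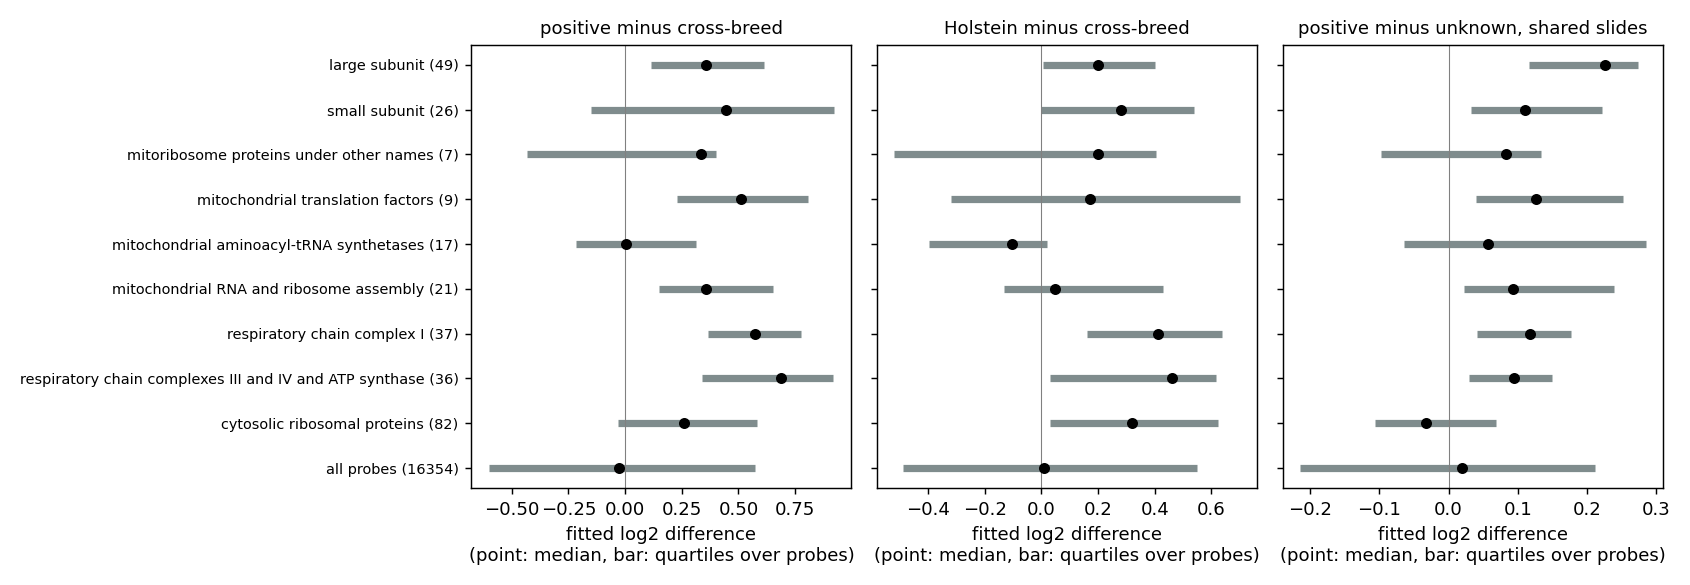
Median (point) and quartiles (bar) of the log2 differences of each gene list in 3 comparisons, positive minus cross-breed, Holstein minus cross-breed and positive minus unknown animals on shared slides. In the first, the respiratory chain had a median of 0.61, the small subunit 0.45, the large subunit 0.36 and all probes -0.03.

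Markers of other cell types and of fibre type moved with this comparison. All 11 muscle marker probes were well above background on every array, so that the tissue label held. Of them 5 were higher and 5 lower. Among the slow-fibre genes, MYH7 was 0.99 and TNNT1 1.11 higher, and among fast-fibre genes TNNT3 was 2.72 lower and both MYH1 probes were lower, by 7.32 and 4.25. Their log2 summed signal was 20.07 to 20.41 in positive and 19.46 to 20.26 in cross-breed animals, with MB the most abundant of them. Of 4 tested adipocyte markers 3 were higher in the positive animals, and their log2 summed signal, led by FABP4, was 10.2 to 11.4 against 6.25 to 7.98. FABP4 was 9.46, 10.10, 10.34 and 9.30 in the positive animals and 4.87, 6.44, 4.60, 5.18 and 1.75 in the controls. LEP, also listed for adipocytes, was dim, failed the filter and lay mostly the other way. It had 3.09, 3.72, 3.20 and 3.33 against 4.88, 4.70, 4.51, 3.21 and 4.28. Of 6 fibroblast probes 1 was higher and 3 lower, with a summed signal led by DCN of 11.9 to 13.6 against 12.99 to 15.4. The part of fibre type and of these cells in the members' differences was not tested.

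The Holstein controls gave a comparison of untreated animals with untreated animals of another breed, age range and weight. It shared the 5 cross-breed arrays with the comparison above, so the 2 are given side by side and not set against each other. Of the 75 members, 21 (28.0%) were higher in Holstein animals and 9 (12%) were lower, against 23.9% and 24.4% of all probes. The higher share was thus near that of all probes and the lower share was smaller. The large subunit had 12 higher and 7 lower, the small subunit 9 and 2. Medians were 0.20 and 0.28 on the log2 scale, against 0.01 over all probes. That of the large subunit was 0.12 without K8 and that of the small subunit 0.14 with normexp. With MRPS30 and MRPS18A in the large subunit they were 0.21 and 0.20. At least 2-fold were 7 higher (all probes 10.9%) and 2 lower (all probes 9.69%). All Holstein values lay above all cross-breed values for 11 members (all probes 8.1%) and below them for 5 (all probes 8.08%). With scaling to the 75th percentile the split over all probes was 18.4% and 29.3%, and 24 members were higher and 11 lower.

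MRPL42, a protein of the large subunit without a bacterial counterpart, had the largest difference. In the 13 Holstein animals it ran from 11.46 to 12.53 with a median of 12.07. The cross-breed controls had 10.54, 10.41, 10.61, 10.49 and 10.18, below every Holstein animal. The log2 difference was 1.59 (standard error 0.16, 3.01-fold, limma adjusted p = 6.08e-07), and in positive animals, at 11.58, 11.44, 11.13 and 11.21, it was 0.90 (adjusted p = 0.000758).

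MRPL13 ran from 12.38 to 13.20 in Holstein animals, with a median of 12.76, above every cross-breed value given before (difference 1.56, adjusted p = 8.63e-07). MRPL45, which anchors the ribosome at the inner membrane, ran from 12.76 to 13.44 with a median of 13.09, against 11.78, 11.45, 11.55, 11.73 and 11.69. The ranges stood apart, with a difference of 1.47 (standard error 0.12, adjusted p = 2.33e-08). In positive animals MRPL45 was 12.85, 12.70, 12.53 and 12.69 (difference 1.05, adjusted p = 0.000133).

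MRPS18C, the small-subunit counterpart of bacterial S18, ran from 11.78 to 12.85 in Holstein animals with a median of 12.35. The cross-breed controls had 10.84, 10.66, 10.93, 10.85 and 10.73, again all lower (difference 1.50, adjusted p = 1.39e-06). MRPL35, of the large subunit, ran from 5.04 to 7.44 with a median of 6.83 against 5.60, 4.52, 5.60, 5.35 and 5.64. Its ranges overlapped and K8 was lowest (difference 1.33, standard error 0.30, adjusted p = 0.00138).

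Lower in Holstein animals were the same MRPL39 probe as before, from 9.30 to 10.62 (difference -1.24, adjusted p = 3.65e-05), and MRPS9, from 8.13 to 8.86 against 9.85, 9.06, 9.48, 9.53 and 9.96 (difference -1.06, adjusted p = 2.09e-05). Neither overlapped with the controls. MRPL23 (-0.81, adjusted p = 1.37e-05), MRPL49 (-0.66, adjusted p = 0.000173) and MRPS27, a small-subunit protein with RNA-binding repeats (-0.66, adjusted p = 0.000896), were lower too, each without overlap. Of the 7 proteins under other names 3 were higher, OXA1L (0.43), PTCD3 (0.48) and MRPL58 (0.38), and 2 lower, DAP3 (-1.29, adjusted p = 0.000493) and GADD45GIP1 (-0.71). MRPL58 no longer passed without K7, K8 or K12 (adjusted p = 0.0762 to 0.13), with a random block for scan day (0.0544) or with the pairwise loess (0.24, adjusted p = 0.179). In this comparison of controls 42 of 73 respiratory chain probes were higher and 6 lower. Of 82 cytosolic ribosomal protein probes 40 were higher and 9 lower. Shares over all probes were 23.9% and 24.4%. All 4 adipocyte and all 6 fibroblast probes tested were higher in Holstein animals. The untested, dim LEP ran from 2.65 to 4.10 in Holstein and from 3.21 to 4.88 in cross-breed animals. Of 11 muscle marker probes 5 were higher and 3 lower. Among them slow-fibre MYH7 (0.74) and TNNT1 (0.605) were higher and fast-fibre TNNT3 (-1.47) was lower. The MYH1 probes differed by 1.635 and 0.47, and only the former passed. The part of fibre type and of these cells was not tested.

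Only on 2 slides did positive and unknown animals lie side by side, and all 4 unknown animals there were of group B, which the study drew for lying beside the positive animals. There animals S21 and S54 shared a slide with 78 and 79, and S56 and S57 shared one with 50 and 81. With the slide as a block, limma called no member and no probe at an adjusted p under 0.05 (0.0% of 16354). At an unadjusted p under 0.05, 5 members were higher (6.67%, all probes 4.28%) and none were lower (all probes 7.17%). The 4 positive values lay above all 4 unknown values for 2 members (all probes 2.8%) and below them for none (all probes 3.83%). The fitted difference was above 0 for 69 of 75 members and for 8598 of 16354 probes. Medians were 0.23 over the large subunit and 0.11 over the small subunit, against 0.02 over all probes. They were 0.35 and 0.28 with scaling to the 75th percentile, and the small-subunit median was 0.03 with the pairwise loess. The large-subunit median was 0.13 without S57, and that of the small subunit was 0.07 without 78, 0.21 without S54 and 0.19 without 79.

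Within the slide of S56 and S57 the medians were 0.15 and 0.18 (all probes 0.01), and within the slide of S21 and S54 they were 0.23 and 0.05 (all probes 0.01). The 5 members, named after their values were seen, were MRPL39 at the probe described above (0.52, unadjusted p = 0.0195), MRPL35 (0.55, p = 0.0301), MRPL15 (0.47, p = 0.0303), MRPL49 (0.48, p = 0.0305) and MRPL30 (0.38, p = 0.0358), all of the large subunit, with limma adjusted p-values of 0.349 to 0.404. MRPL39 and MRPL49 were thus on the lower side against cross-breed controls and on the higher side against the unknown animals of the same slides. MRPS33 differed by 0.48 (standard error 0.53, adjusted p = 0.737), and MRPL13 by 0.13 (standard error 0.18, adjusted p = 0.785). Over the respiratory chain the median was 0.11 and over cytosolic ribosomal proteins -0.03. Median differences of cell type markers on these slides were -1.12 for fibroblasts (6 probes), -0.63 for leukocytes (5), -0.36 for endothelium (3), 0.13 for adipocytes (4) and 0.11 for red blood cells (1). Both MYH1 probes had fitted differences of -3.67 and -3.47. No marker passed the test, and their part was not tested.

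Levels by array show how the animals within a group spread. For each array the median was taken over the members of a subunit, each member first set to its own mean over all 43 arrays. For the large subunit it was 0.28, 0.01, -0.02 and 0.25 in S21, S54, S56 and S57. In K7, K8, K10, K11 and K12 it was -0.21, -0.45, -0.12, -0.17 and -0.12. The small subunit gave 0.35, 0.08, 0.06 and 0.38 against -0.28, -0.34, -0.02, -0.25 and -0.02. In both subunits S21 and S57 were high while S54 and S56 lay near 0, and every positive animal lay above every cross-breed animal. The medians of all probes ran from -0.03 to -0.02 in the positive and from -0.02 to 0.02 in the cross-breed animals.

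Holstein animals lay between and among both groups. Their large-subunit medians ran from -0.27 (C45) to 0.30 (C24) with a median of -0.01, and their small-subunit medians from -0.27 (C18) to 0.35 (C24). C24 thus reached the level of S21 and S57, and C18 and C45 lay within the range of the cross-breed animals. The spread of single members within a group was given by their SD. The median SD of a member was 0.22 in positive animals for the large and 0.23 for the small subunit, against 0.24 for all probes, and in Holstein animals 0.26 and 0.29 against 0.41. The widest spread of a member within a group was that of MRPS33 in group B, 1.48.

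**Figure D5:**
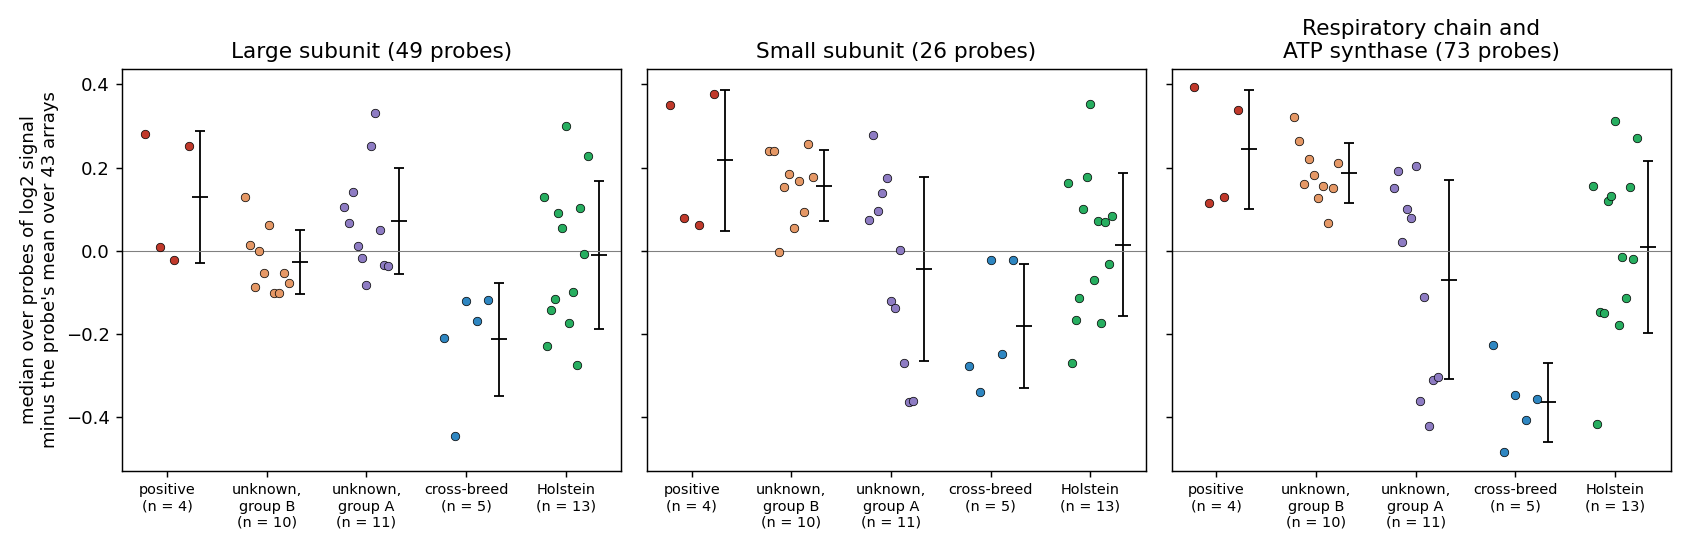
Median over the large subunit, the small subunit and the respiratory chain on each array, every probe first set to its mean over 43 arrays (log2 units), by group, 1 point per animal with the group mean and SD beside the points. Positive animals ran from -0.02 to 0.28 for the large subunit and cross-breed animals from -0.45 to -0.12.

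Within the unknown animals, members of both subunits were found on both sides. Since groups B and A were drawn from the signals of these arrays, and share no slide and no scan day, the values below are a description without a test, and batch and group could not be told apart. A mean difference of at least 2-fold was found for 6 members higher in group B (8.0%, all probes 14.5%) and 4 lower (5.33%, all probes 11.4%). The ranges of the groups stood apart for 10 members higher in group B (all probes 6.21%) and 4 lower (all probes 5.49%). All 6 that were higher by 2-fold carry small-subunit names, 23.1% of the tested members so named, though MRPS30 among them sits in the large subunit. Without animal 79, 5 members were higher by 2-fold and 4 lower. With the pairwise loess 13 members were at least 2-fold higher (all probes 15.4%) and 5 lower (all probes 17.7%). With normexp 4 were higher (all probes 4.96%) and 1 lower (all probes 1.6%). The median difference was -0.11 over the large and 0.10 over the small subunit, against -0.05 over all probes, but that of the large subunit was 0.045 with normexp background correction and that of the small subunit 0.37 with the pairwise loess.

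MRPS16, the counterpart of bacterial S16, ran from 10.44 to 11.03 in group B, with a median of 10.82. In group A it ran from 8.02 to 9.53 with a median of 8.96, below all 32 other arrays of the study. The difference of means was 1.94. MRPS30 ran from 8.52 to 9.30 in group B and from 7.10 to 7.89 in group A, again below all other arrays, with a difference of 1.51. MRPS26 was the only further member for which group A lay below all other arrays (difference 1.02), and MRPL16 the only one for which it lay above them, from 13.65 to 14.01 against 12.85 to 13.26 in group B (difference -0.74). Over all probes, 2.16% lay below and 0.544% above in this way.

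MRPS33 ran from 3.94 to 7.55 in group B and from 2.12 to 4.45 in group A, with overlapping ranges. It was well above background on only 2 of the 11 arrays of group A, so that the size of the difference of 2.77, and its count among the 6, is uncertain. MRPS15 ran from 13.56 to 14.16 against 12.60 to 13.13 (difference 1.11), and MRPS11 had a difference of 1.02, both without overlap. On the other side, MRPL48 ran from 10.40 to 11.20 in group B and from 11.57 to 12.51 in group A (difference -1.31), without overlap. The MRPL39 probe differed by -1.12 and MRPL51 by -1.06, with overlap, and the dim MRPS7 by -1.16.

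Group A was uneven for the small subunit. The medians of its animals 266, 269 and 270 were -0.27, -0.36 and -0.36, the lowest of all unknown animals, while animal 37 of the same group had the highest, 0.28. Animals 37, 38, 49 and 51, on 1 slide of 1 day, had 0.28, 0.10, 0.14 and 0.17, and the other 7 of group A, scanned on another day, had 0.07 or less. Within 1 slide of that day, animals 36, 58 and 269 had 0.07, -0.12 and -0.36, with respiratory chain medians of 0.15, 0.20 and -0.31 and endothelial marker medians of 1.09, 1.28 and -1.02. The respiratory chain medians of 266, 269 and 270 were -0.42, -0.31 and -0.30, and that of 37 was 0.19. The large subunit did not follow, at 0.05, -0.03, -0.04 and 0.07 in these animals. In the same order, the endothelial marker medians were -1.58, -1.02, -0.74 and 1.15. The fibroblast marker medians were 1.19, 1.31, 1.14 and -1.31. The endothelial list had 3 probes, which did not move alike. VWF was 8.92, 9.23 and 9.17 in 266, 269 and 270, against 12.06 in 37. CDH5 was 8.41, 8.97 and 9.24 against 10.83. PECAM1 was 9.99 in 266 and 10.52 in 269, but in 270 it lay near the 11.05 of 37. In 36, 58 and 269 PECAM1 was 10.99, 11.18 and 10.52, and in 263 and 265 it was 10.94 and 10.75. Animals 263 and 265, scanned on the day of 266, 269 and 270, had endothelial medians of -1.15 and -1.205. Their small-subunit medians were -0.14 and 0.003 and their fibroblast medians 0.55 and -0.60. The part of these cells was not tested. Group B was tighter, from 0.00 to 0.26 for the small subunit and from -0.10 to 0.13 for the large.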

How the data were processed

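Total RNA of biceps brachii was amplified, labelled and hybridized by the authors to single-colour Agilent bovine arrays. They deposited, per spot, the scanner software's processed intensity, background-corrected and detrended. The series matrix of their normalized intensities, put on the log2 scale here, served as an alternative. Here log2 intensities of gene and spike-in spots were normalized by fast cyclic loess (limma 3.58.1, R 4.3.3) over 43 arrays and averaged over the spots of a probe, without outlier spots (12 missing values). Probes under 4 on at least 30 arrays were removed (5121). The study states this limit, but on its own normalized values, so that it need not remove the same probes here. The 2 comparisons with the cross-breed controls and that on shared slides (slide as block) were fitted with lmFit and eBayes, each with its own groups only, and p-values adjusted over 16354 probes by Benjamini-Hochberg. The positive and unknown groups were taken from the labels. Both control groups rest on the animal names in the labels and the study's account of them, and groups A and B on the study. P-values measure the spread between these animals, and the number of arrays limits the precision. Fits were checked on simulated arrays drawn independently, without slide or scan-day effects, so that this check does not cover batch. The members, gene lists and tests were chosen with earlier results of these data known. Named genes were the up to 5 largest called changes in each direction per tested comparison, the 3 largest differences in each direction between groups B and A, and a fixed few (MRPL12, MRPL41, MRPS30, MRPS18A, DAP3, MRPL58); others were named after their values were seen. Alternatives covered normalization, background, filters, the subunit of MRPS30 and MRPS18A, batch blocks, a common fit of all 43 arrays and left-out arrays. Leukocyte and red blood cell marker lists had 1 of 5 and 1 of 1 probes higher in positive than in cross-breed animals, and none lower, and endothelial markers 2 of 3 higher. Probe sequences and genome positions were not used here. A result that involves a withheld item is not reported here.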

Additional observations from a re-analysis of the deposited data

Results flagged for a closer look

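Of 60 groups of values searched for a single animal far from the rest of its group, 3 had one, and chance gives about 1 in 20. All 3 were among the cross-breed controls. MRPL35 was 4.52 in K8, with the next lowest control at 5.35. MRPS18A was 11.92 in K11, with the next highest control at 11.23. The large-subunit median of K8 was -0.45, with the next lowest control at -0.21. Without K8 the positive animals had 28 members higher and 6 lower than the cross-breed controls, against 24.1% and 24.3% of all probes.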

How the results depend on the processing

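Between positive and cross-breed animals the medians of both subunits stayed above 0 under all alternatives run. They rose with pairwise loess, to 0.54 (large) and 0.79 (small), where the median of all probes was -0.26. It was -0.13 with quantile normalization and 0.11 with scaling to the 75th percentile. The count of higher members was 23 with the scan day (all probes 20%) and 24 with the slide as a random block (21.6%), and 44 with pairwise loess (21.4%). A common fit of all 43 arrays gave 26 higher (all probes 14.6%) and 4 lower (15.45%). In that fit MRPS7, MRPS12, MRPS16, MRPL35 and MRPS30 did not pass (limma adjusted p = 0.0791 to 0.302). For Holstein minus cross-breed it gave 18 higher (all probes 19.1%) and 8 lower (18.1%). The count of lower members was 3 with scaling to the 75th percentile (all probes 18.0%), with normexp background correction (19.8%) and, chosen after seeing the data, with members well above background on all arrays (21%), where all probes had 26.2% before. Leaving out 1 array at a time gave 24 to 34 higher (24 without S21 or without S57) and 5 to 6 lower, beside 22% to 25% and 22.5% to 25.5% of all probes, and medians of 0.31 to 0.42 (large) and 0.37 to 0.49 (small). Holstein minus cross-breed, with 1 cross-breed array left out at a time, gave 19 to 23 higher and 7 to 9 lower, beside 20.7% to 21.5% and 21.2% to 22.3% of all probes, and medians of 0.12 (without K8) to 0.22 and 0.21 to 0.32. On shared slides no member was called in any of these (0 to 0), with medians of 0.13 to 0.27 and 0.07 to 0.21, and of 0.35 and 0.28 with scaling to the 75th percentile. Between groups B and A, pairwise loess gave a small-subunit median of 0.37 and 13 members at least 2-fold higher and 5 lower, and normexp a large-subunit median of 0.045, 4 members higher and 1 lower. Signs turned for positive minus cross-breed in MRPS12 (0.23), MRPS7 (0.16) and MRPL48 (0.012) with the 75th percentile, in MRPS27 (0.039), MRPL48 (0.17) and MRPS30 (-0.19) with pairwise loess, and in MRPL48 without S56 (0.04), K7 (0.03) or K11 (0.04). For Holstein minus cross-breed they turned in MRPS12 (-0.044) and MRPS7 (-0.20) with the 75th percentile and in MRPS7 (-0.04) with normexp. The cause was not tested. No paired analysis was possible because the animals carry no replicate number shared between groups, except that positive and unknown animals on shared slides were compared with the slide as a block. Near background, MRPS12, MRPS7, MRPS33, MRPS23 and MRPS22 are the least certain.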

Other observations

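The array carries 2 probes described as MRPL17, which RefSeq puts on separate loci. The first was 0.58 higher in positive than in cross-breed animals (limma adjusted p = 0.00613). The second, on a locus without a gene symbol of its own, was 0.77 higher (adjusted p = 0.0713), with animal S54 at 10.45 and the other positive animals at 8.80 to 9.37. Leaving out 1 array at a time gave 0.43 to 0.98 for this second probe. It was lowest without S54 and highest without S56, where it passed (adjusted p = 0.0373).

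In the whole set of 75 tested members, no positive, group B or Holstein array group lay apart from all other arrays. The cross-breed controls lay below all 38 other arrays for MRPL21, MRPL42 and MRPS18C and above them for none, against 1.15% and 1.36% of all probes.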
